A study of Mus musculus with 48 samples.

Results

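Transcript levels of 8 genes of the oligodendrocyte lineage, *Pdgfra*, *Cspg4*, *Olig1*, *Olig2*, *Sox10*, *Gpr17*, *Bmp4* and *Enpp6*, were examined in punches of the mouse amygdala. They were chosen by symbol for their place in the lineage, with earlier results of these data known. Each symbol matched 1 of the 52636 gene IDs measured by RNA sequencing. All mice were females of a strain labelled C57BL/6NTac-Brd1, a line with a targeted deletion in *Brd1* per the study's methods, aged 8 to 11 weeks by the design text. They carried either 2 intact copies of *Brd1* (WT) or 1 (*Brd1*+/-), which encodes a bromodomain protein of histone acetyltransferase complexes. Mice of each genotype had received saline (vehicle), the tricyclic antidepressant imipramine (IMN, 10 mg/kg) or the serotonin reuptake inhibitor fluoxetine (FLX, 5 mg/kg), which gave 6 groups of 8 libraries. The study asked whether reduced *Brd1* expression alters brain transcription and whether antidepressants act on it. Levels are given in TPM, a share of the transcripts of a library scaled by gene length.

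Oligodendrocytes arise in the adult brain from resident precursor cells (OPCs). OPCs carry the PDGF receptor alpha (*Pdgfra*) and the NG2 proteoglycan (*Cspg4*) on their surface, and lose both when they commit to differentiation. The transcription factors *Olig1*, *Olig2* and *Sox10* are made throughout the lineage and remain in myelinating cells, where *Sox10* is needed for myelin genes such as *Mbp* (myelin basic protein) and *Mog* (myelin oligodendrocyte glycoprotein). The receptor *Gpr17* marks committed precursors, and the choline-specific phosphodiesterase *Enpp6* marks newly forming oligodendrocytes. *Bmp4* encodes a secreted ligand that restrains differentiation and is itself made by committed precursors.

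All positions are on the build GRCm38. *Olig2* (chr16:91225457-91228677) and *Olig1* (chr16:91269772-91271933) are neighbours on the plus strand. *Pdgfra* lies at chr5:75152292-75198215, *Cspg4* at chr9:56865033-56899870 and *Enpp6* at chr8:46986887-47096762, all on the plus strand. *Sox10* (chr15:79154908-79165240) and *Bmp4* (chr14:46383520-46390669) are on the minus strand, and the place of *Gpr17* is given with its levels.

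RefSeq promoters of GRCm38.p6 were matched for 5 of the 8 members. The 250 bases before the start of *Pdgfra* (chr5:75152001-75152250, plus strand) and of *Enpp6* (chr8:46986637-46986886, plus strand) are shown because the first gene had the smallest and the second the largest slope on *Mbp* described further on. Capitals mark matches to CANNTG, the E-box read by basic helix-loop-helix factors such as the OLIG proteins, and to ACAAAG or ACAATG, core motifs of SOX factors, on either strand.
Pdgfra: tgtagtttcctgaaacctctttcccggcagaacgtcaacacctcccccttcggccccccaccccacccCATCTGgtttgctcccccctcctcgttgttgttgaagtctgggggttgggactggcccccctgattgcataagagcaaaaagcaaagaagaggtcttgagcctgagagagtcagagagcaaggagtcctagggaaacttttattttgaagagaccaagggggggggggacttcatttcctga
Enpp6: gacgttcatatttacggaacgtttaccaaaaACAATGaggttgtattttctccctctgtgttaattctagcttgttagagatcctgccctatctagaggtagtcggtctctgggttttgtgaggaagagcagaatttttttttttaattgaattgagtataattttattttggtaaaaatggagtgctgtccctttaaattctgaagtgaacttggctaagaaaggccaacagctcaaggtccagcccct
The *Pdgfra* window holds 1 E-box and 0 SOX motifs, and the *Enpp6* window 0 E-boxes and 1 SOX motif. Of 32851 promoters of the same length, 66.2% hold an E-box and 25.2% a SOX motif. The matches describe these letters only.

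The libraries held between 23420 and 27252 genes above 0, and no pair was identical. *Brd1* itself averaged 25.9 ± 2.90 TPM in the 8 *Brd1*+/- vehicle libraries and 35.6 ± 5.09 TPM (SD) in the 8 of WT vehicle. Depth cannot be read from TPM. Markers of the amygdala were above 0 in all groups, summing to 351.3 to 2419 TPM over 7 genes. *Sst* had a mean of 779 TPM, while *Slc17a7* ran from 1.87 to 1346 TPM and *Tac2* was at 0 in 3 libraries. The median sum was 1779 TPM in WT vehicle, 1229 TPM in WT IMN and 927 TPM in WT FLX. In *Brd1*+/- mice it was 961 TPM (vehicle), 1593 TPM (IMN) and 1622 TPM (FLX), so these markers were not even across groups. In 13 of the 48 libraries, however, 6 markers of striatal projection neurons (*Drd1*, *Drd2*, *Adora2a*, *Ppp1r1b*, *Gpr6* and *Rgs9*) summed to between 1440 and 6131 TPM. The next library lay at 811 TPM and the lowest at 95.9 TPM, so that punches labelled amygdala differed widely in striatal transcripts. The highest sum was 1440 TPM in WT FLX and between 4305 and 6131 TPM in the other 5 groups, and no marker was at 0 throughout. These 13 libraries came from all 6 groups, and several of the results below are also given without them. Choroid plexus markers (*Ttr*, *Kl*, *Folr1*, *Clic6*) ranged from a sum of 5.82 to 29289 TPM.

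Every member was above 0 in all 48 libraries. *Olig1* was the most abundant, with a median of 152 TPM, and *Bmp4* the least, with a median of 1.87 TPM. In between lay *Pdgfra* (39.6 TPM), *Gpr17* (36.3 TPM), *Sox10* (34.0 TPM), *Olig2* (32.4 TPM), *Cspg4* (13.5 TPM) and *Enpp6* (8.38 TPM), again as medians. The spread between libraries separated the genes further. The highest library exceeded the lowest by 3.24-fold for *Gpr17*, 4.61-fold for *Olig1* and 4.63-fold for *Pdgfra*. The ratio was 5.43 for *Cspg4*, 5.63 for *Sox10* and 5.89 for *Olig2*, and reached 25.8 for *Bmp4* and 38.6 for *Enpp6*. For *Mbp* and *Mog* it was 28.7 and 24.0, so *Enpp6*, the marker of new oligodendrocytes, varied as widely as the myelin genes. For each of the 8 members the ranges of all 15 pairs of groups overlapped, as they did for 98.5% of the 27944 genes tested over all groups.

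**Figure D1:**
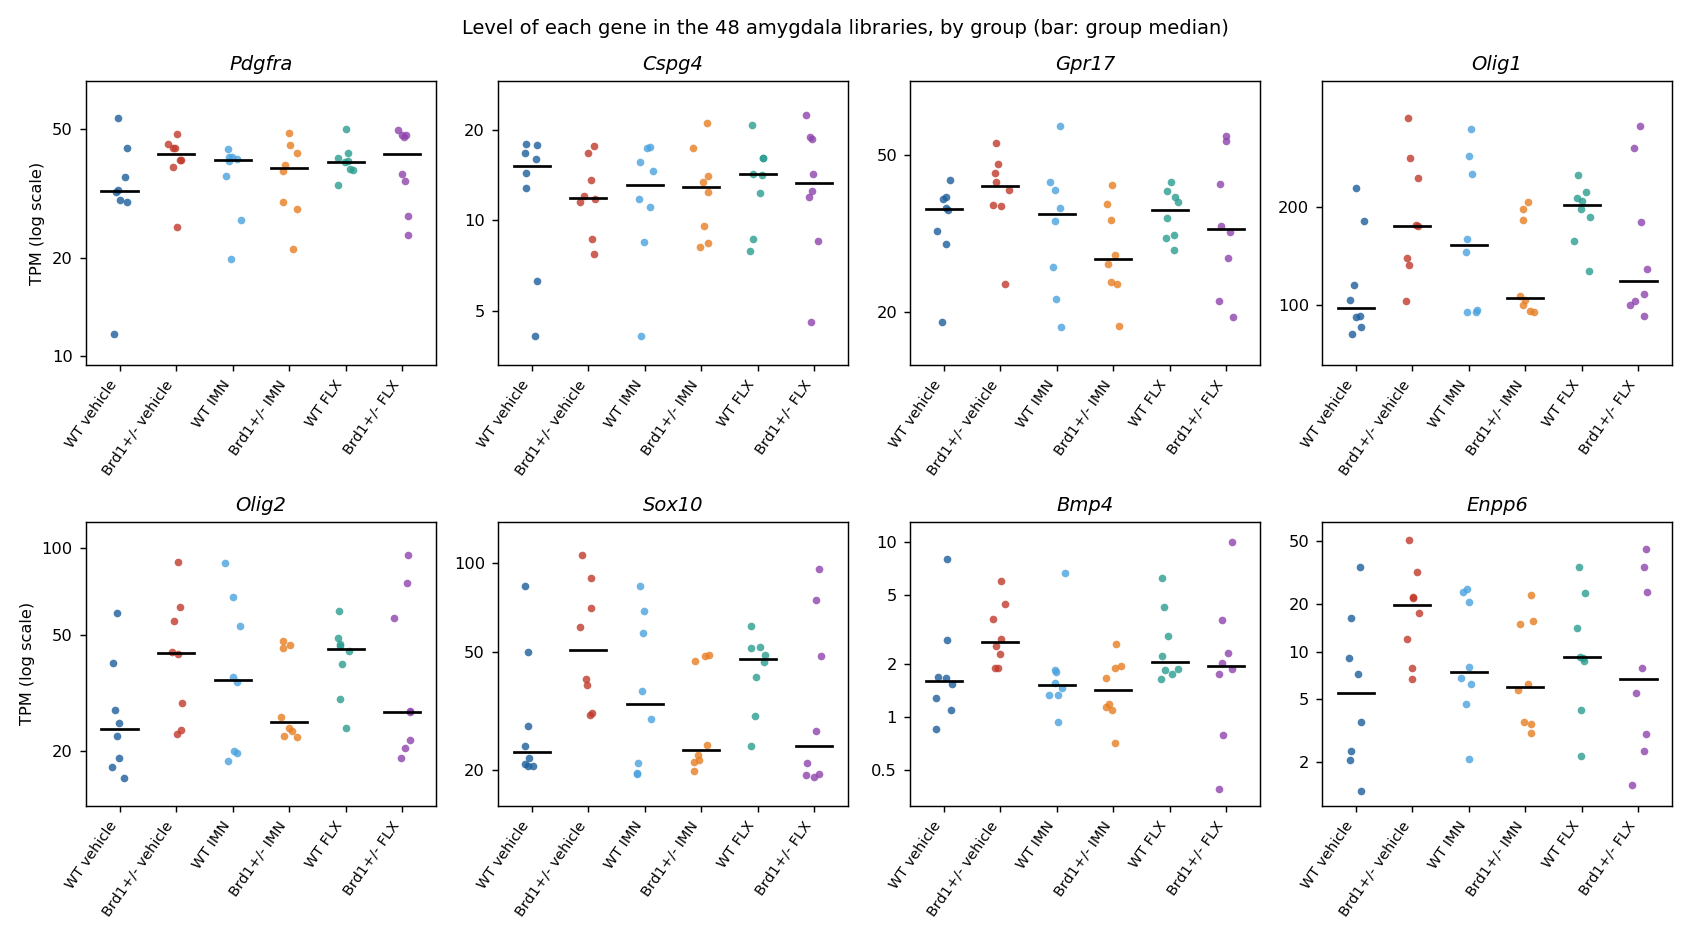
TPM of the 8 genes in each of 48 libraries (points, log scale) in 6 groups of 8, with the group median as a bar. The groups overlap for every gene. *Pdgfra* and *Gpr17* have the smallest pooled SD within groups, 0.41 and 0.43 on the log2 scale, and *Enpp6* spans 1.32 to 51.1 TPM.

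The receptor *Pdgfra*, through which PDGF-A drives OPC division, had group medians between 32.2 and 41.8 TPM. In vehicle mice the lowest, median and highest library had 11.7, 32.2 and 54.0 TPM (WT) and 24.8, 41.8 and 48.3 TPM (*Brd1*+/-). Under IMN these were 19.9, 40.0 and 43.3 TPM (WT) and 21.3, 37.9 and 48.7 TPM (*Brd1*+/-). Under FLX they were 33.5, 39.6 and 50.04 TPM (WT) and 23.6, 41.8 and 49.6 TPM (*Brd1*+/-). The groups overlap almost wholly, and most of them hold a few libraries well below the rest. *Cspg4*, the other surface marker of OPCs, had group means between 12.4 and 13.9 TPM and a lowest and highest library of 4.11 and 22.3 TPM. Its highest and lowest group means differed by 0.19 on the log2 scale against a pooled SD within groups of 0.61.

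*Gpr17*, the receptor of committed precursors, had a lowest, median and highest level of 18.8, 36.3 and 43.1 TPM in WT vehicle and 23.5, 41.7 and 53.6 TPM in *Brd1*+/- vehicle libraries. Under IMN the values were 18.3, 35.3 and 59.1 TPM (WT) and 18.4, 27.1 and 41.8 TPM (*Brd1*+/-), and under FLX 28.6, 36.2 and 42.5 TPM (WT) and 19.4, 32.4 and 55.9 TPM (*Brd1*+/-). *Brd1*+/- vehicle had the highest median and *Brd1*+/- IMN the lowest. *Gpr17* (chr18:31942997-31949636, minus strand) shares 188 exonic bases with *Lims2* of the opposite strand, which had a mean of 16.6 TPM, and reads of this stretch cannot be assigned if strand was not used in counting. *Bmp4*, the ligand, was low throughout, at 0.86, 1.60 and 8.00 TPM in WT vehicle and 1.90, 2.66 and 5.99 TPM in *Brd1*+/- vehicle libraries. It stood at 0.94, 1.52 and 6.65 TPM (WT) and 0.71, 1.43 and 2.62 TPM (*Brd1*+/-) under IMN, and at 1.64, 2.06 and 6.21 TPM (WT) and 0.39, 1.96 and 10.0 TPM (*Brd1*+/-) under FLX. In WT vehicle, WT IMN and *Brd1*+/- FLX a single library lay far above the others. The 2 highest *Bmp4* libraries of all, *Brd1*+/- FLX 8 (10.0 TPM) and WT vehicle 1 (8.00 TPM), also had the 2 highest sums of choroid plexus markers, 28587 and 29289 TPM. Next came WT IMN 3 (6.65 TPM) and WT FLX 6 (6.21 TPM), with 7.39 and 5.82 TPM of these markers. The part of choroid plexus in the *Bmp4* level was not tested.

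The 3 transcription factors shared 1 pattern. *Olig1* had a lowest, median and highest level of 81.7, 98.2 and 230.2 TPM in WT vehicle and of 103, 176 and 376.5 TPM in *Brd1*+/- vehicle libraries. Under IMN it stood at 95.1, 153 and 350 TPM (WT) and 95.3, 105 and 208 TPM (*Brd1*+/-), and under FLX at 128, 203 and 252 TPM (WT) and 92.7, 119 and 356.1 TPM (*Brd1*+/-). WT vehicle and *Brd1*+/- IMN gave the 2 lowest medians, with medians near the lowest library and a few libraries far above. *Sox10* followed with 20.5, 22.9 and 83.4 TPM in WT vehicle and 30.5, 50.6 and 105.8 TPM in *Brd1*+/- vehicle libraries. Its values were 19.3, 33.3 and 83.2 TPM (WT) and 19.8, 23.3 and 48.9 TPM (*Brd1*+/-) under IMN, and 24.1, 47.5 and 61.1 TPM (WT) and 18.8, 24.0 and 95.5 TPM (*Brd1*+/-) under FLX. *Olig2* ran in parallel, with group medians from 23.7 TPM in WT vehicle to 45.1 TPM in WT FLX and a library range of 16.1 to 94.9 TPM.

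*Enpp6* had a lowest, median and highest level of 1.32, 5.45 and 34.5 TPM in WT vehicle and of 6.69, 19.8 and 51.1 TPM in *Brd1*+/- vehicle libraries. Under IMN these were 2.1, 7.44 and 25.1 TPM (WT) and 3.08, 5.99 and 22.9 TPM (*Brd1*+/-), and under FLX 2.20, 9.22 and 34.5 TPM (WT) and 1.43, 6.72 and 44.9 TPM (*Brd1*+/-). The median of *Brd1*+/- vehicle was the highest and that of WT vehicle the lowest, as for *Sox10*, with wide overlap.

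The groups were compared in pairs with limma on log2(TPM + 0.1), with p-values adjusted over all genes tested (Benjamini-Hochberg) and called under 0.05. In vehicle mice, *Brd1*+/- against WT, 0 of the 8 members were called, where 0.708% of all genes were. All 8 had a positive difference, with a median of 0.68 against 0.03 over all genes. An unadjusted p under 0.05 was found for 4 of them and for 8.52% of all genes. These 4, *Enpp6*, *Sox10*, *Olig1* and *Olig2*, correlated with each other within groups at 0.85 to 0.98, so they are not independent. *Enpp6* was higher by 1.63 ± 0.61 (log2 difference ± SE, adjusted p = 0.422), and all 8 *Brd1*+/- libraries lay above the WT median. The difference was 0.85 ± 0.33 for *Sox10* (adjusted p = 0.461), again with 8 of 8 libraries above the WT median. It was 0.71 ± 0.27 for *Olig1* (adjusted p = 0.436, 8 of 8 libraries) and 0.69 ± 0.31 for *Olig2* (adjusted p = 0.542, 6 of 8 libraries). The remaining members lay between 0.01 for *Cspg4* (95% interval -0.61 to 0.63) and 0.66 for *Bmp4* (95% interval -0.14 to 1.47). For *Pdgfra* the interval was -0.15 to 0.84. None of these differences passed the adjusted threshold. Without the libraries of high striatal markers 0 members were called, and the share of all genes called fell to 0.058%. This left out WT vehicle 1 and 3 and *Brd1*+/- vehicle 1, 6 and 8, so fewer libraries were compared. WT vehicle 1 had the highest level of all 4 genes among WT vehicle libraries, and leaving it out widens their differences. The part of striatal tissue in these values was not tested. The differences were then 2.07 for *Enpp6*, 1.10 for *Sox10*, 0.80 for *Olig1* and 0.84 for *Olig2*.

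The myelin genes had differences of the same sign. *Mbp* had a median of 260 TPM in WT vehicle and 842 TPM in *Brd1*+/- vehicle libraries, and 12 of 12 myelin genes on the list described here had a positive difference, with a median of 1.51, of which 0 were called. With the mean of *Mbp* and *Mog* as a covariate, the *Brd1*+/- minus WT difference was 0.06 for *Enpp6*, 0.02 for *Olig1*, -0.07 for *Olig2* and -0.03 for *Sox10*, and the adjusted p was 1.0 for *Enpp6*, *Olig1* and *Sox10* (limma). The vehicle groups also differed in other markers, with overlapping ranges. The median sum in WT and *Brd1*+/- libraries was 1779 and 961 TPM for amygdala markers and 18.1 and 116 TPM for choroid plexus markers. In these bulk punches a different tissue make-up, a different number of lineage cells and a different amount of RNA per cell cannot be told apart.

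The genotype comparison under drug gave no called member either. Under IMN, where 0.017% of all genes were called, 2 of 8 members had a positive difference, and the members ranged from -0.35 (*Olig1*) to 0.10 (*Cspg4*). Under FLX, where 1.54% were called, 0 of 8 had a positive difference, with a range of -0.37 to -0.06. The 95% intervals under FLX ran from -0.39 to 0.25 for *Pdgfra* and from -1.80 to 1.25 for *Enpp6*, so that differences of over 2-fold in *Enpp6* lie within them.

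Each drug was then set against vehicle within a genotype. All vehicle libraries had lower sample codes than all drug libraries, so drug and range of codes cannot be told apart here. In WT mice 0 of 8 members were called under IMN, where 0% of all genes were, with differences from -0.06 to 0.68. Under FLX 0 of 8 were called in WT mice, beside 0.335% of all genes. *Olig1* was higher by 0.74 ± 0.21 (adjusted p = 0.0966) and *Olig2* by 0.67 ± 0.25 (adjusted p = 0.196), each with 8 of 8 FLX libraries above the vehicle median. This pair depended on the libraries included. Without WT vehicle 1, a library rich in myelin and choroid plexus transcripts, both were called (adjusted p = 0.0183 and 0.0392), and the background rose to 4.11% of genes. Without WT vehicle 7, *Olig1* was called (adjusted p = 0.0428, background 2.06%). It was also called without the libraries of high striatal markers (adjusted p = 0.041, background 2.68%). That set includes WT vehicle 1 (2951 TPM of striatal markers). This call and the one without WT vehicle 1 alone therefore leave out the same library and are not separate results. With *Mbp* and *Mog* as a covariate, where 0 of all 23557 genes were called, the differences were 0.31 for *Olig1* and 0.14 for *Olig2*.

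In *Brd1*+/- mice the differences between drug and vehicle were mostly negative. Under IMN 0 of 8 members were called, where 0.776% of all genes were, and 7 of 8 were below 0, with a median of -0.52. *Bmp4* differed by -0.99 ± 0.28 (adjusted p = 0.183), with 8 of 8 IMN libraries below the vehicle median. *Sox10* differed by -0.85 ± 0.30 (adjusted p = 0.335, 8 of 8 libraries below). *Enpp6* was at -1.26 ± 0.49 (adjusted p = 0.394) and *Gpr17* at -0.50 ± 0.18 (adjusted p = 0.338), with 7 of 8 libraries below for both. The 12 myelin genes were all lower too, with a median of -1.03 and 0 called. With *Mbp* and *Mog* as a covariate the differences were -0.12 for *Sox10*, -0.09 for *Enpp6*, -0.18 for *Gpr17* and -0.64 for *Bmp4*. Without the libraries of high striatal markers 0 members and 0.0366% of all genes were called. This left out *Brd1*+/- vehicle 1, 6 and 8 and *Brd1*+/- IMN 2, 6 and 8, so fewer libraries were compared. *Sox10* was then at -0.67 and *Enpp6* at -1.06 (limma, unadjusted p = 0.1 and 0.134). *Gpr17* was at -0.46 and *Bmp4* at -1.27 (unadjusted p = 0.0169 and 0.00845). Under FLX 0 of 8 were called, where 0.731% of all genes were, and the differences ran from -1.11 (*Enpp6*) to 0.07 (*Cspg4*). The drug comparisons within a genotype and the genotype comparison in vehicle mice use the same vehicle libraries, so their values are not independent of each other.

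**Figure D2:**
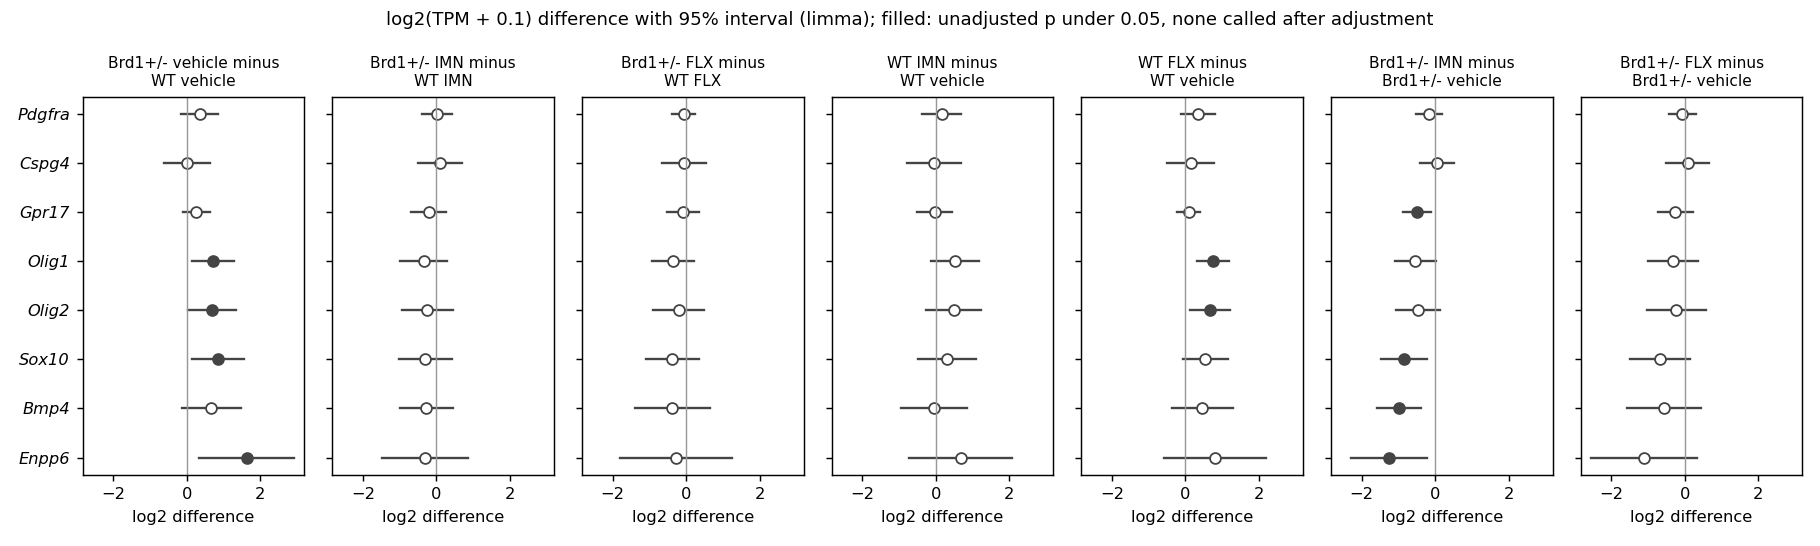
log2(TPM + 0.1) difference (x axis) with its 95% interval from limma for the 8 genes in 7 comparisons of 8 against 8 libraries. Filled points have an unadjusted p under 0.05, and none was called after adjustment. *Enpp6* has the widest intervals, and *Pdgfra* and *Cspg4* lie near 0 in the *Brd1*+/- drug comparisons.

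Whether a drug acted differently in the genotypes was tested as an interaction over 32 libraries. For IMN 0 of 8 members were called, where 0.536% of all genes were. *Enpp6* had an interaction of -1.94 ± 0.85 (adjusted p = 0.496), *Sox10* of -1.15 ± 0.49 (adjusted p = 0.485) and *Olig1* of -1.06 ± 0.42 (adjusted p = 0.434). For FLX 0 of 8 were called, where 1.71% of all genes were, with -1.22 ± 0.50 for *Sox10* (adjusted p = 0.201) and -1.07 ± 0.40 for *Olig1* (adjusted p = 0.159). With myelin as a covariate the IMN values were 0.22, 0.12 and 2.89e-05 for *Enpp6*, *Sox10* and *Olig1*, and the FLX values -0.06 for *Sox10* and -0.17 for *Olig1*. Over all 6 groups at once, 0 of 8 members differed (moderated F, 1.7% of all genes called), the lowest adjusted p being 0.529 for *Olig1*.

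Within groups, most of the members varied with the myelin genes. Each gene was fitted against *Mbp* with a term for group over all 48 libraries. The slope is the log2 change of a gene for a doubling of *Mbp*. On *Mbp* 6 of 8 members were called, all positive, where 25.1% of all genes were called, and on *Mog* again 6 of 8, where 24.5% were. *Enpp6* had the steepest slope on *Mbp*, 0.97 (95% interval 0.82 to 1.12, adjusted p = 3.95e-14), so that it rose in near proportion to the myelin transcript. It lay at the 99.8th percentile of all genes. The transcription factors rose less steeply, with slopes of 0.54 for *Sox10* (0.48 to 0.61), 0.50 for *Olig2* (0.43 to 0.58) and 0.44 for *Olig1* (0.39 to 0.50). *Bmp4* had 0.42 (0.26 to 0.59) and *Gpr17* 0.22 (0.14 to 0.30). The adjusted p of these 5 genes was at most 9.88e-05. The slopes of the OPC surface genes were 0.11 for *Cspg4* (-0.04 to 0.26, adjusted p = 0.295) and 0.08 for *Pdgfra* (-0.01 to 0.18, adjusted p = 0.213), neither of them called. Slopes over about 0.26 for both are outside these intervals. On *Mog* the order was the same at the top, with 1.12 for *Enpp6* and 0.60 for *Sox10*, and *Pdgfra* and *Cspg4* both stood at 0.08.

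**Figure D3:**
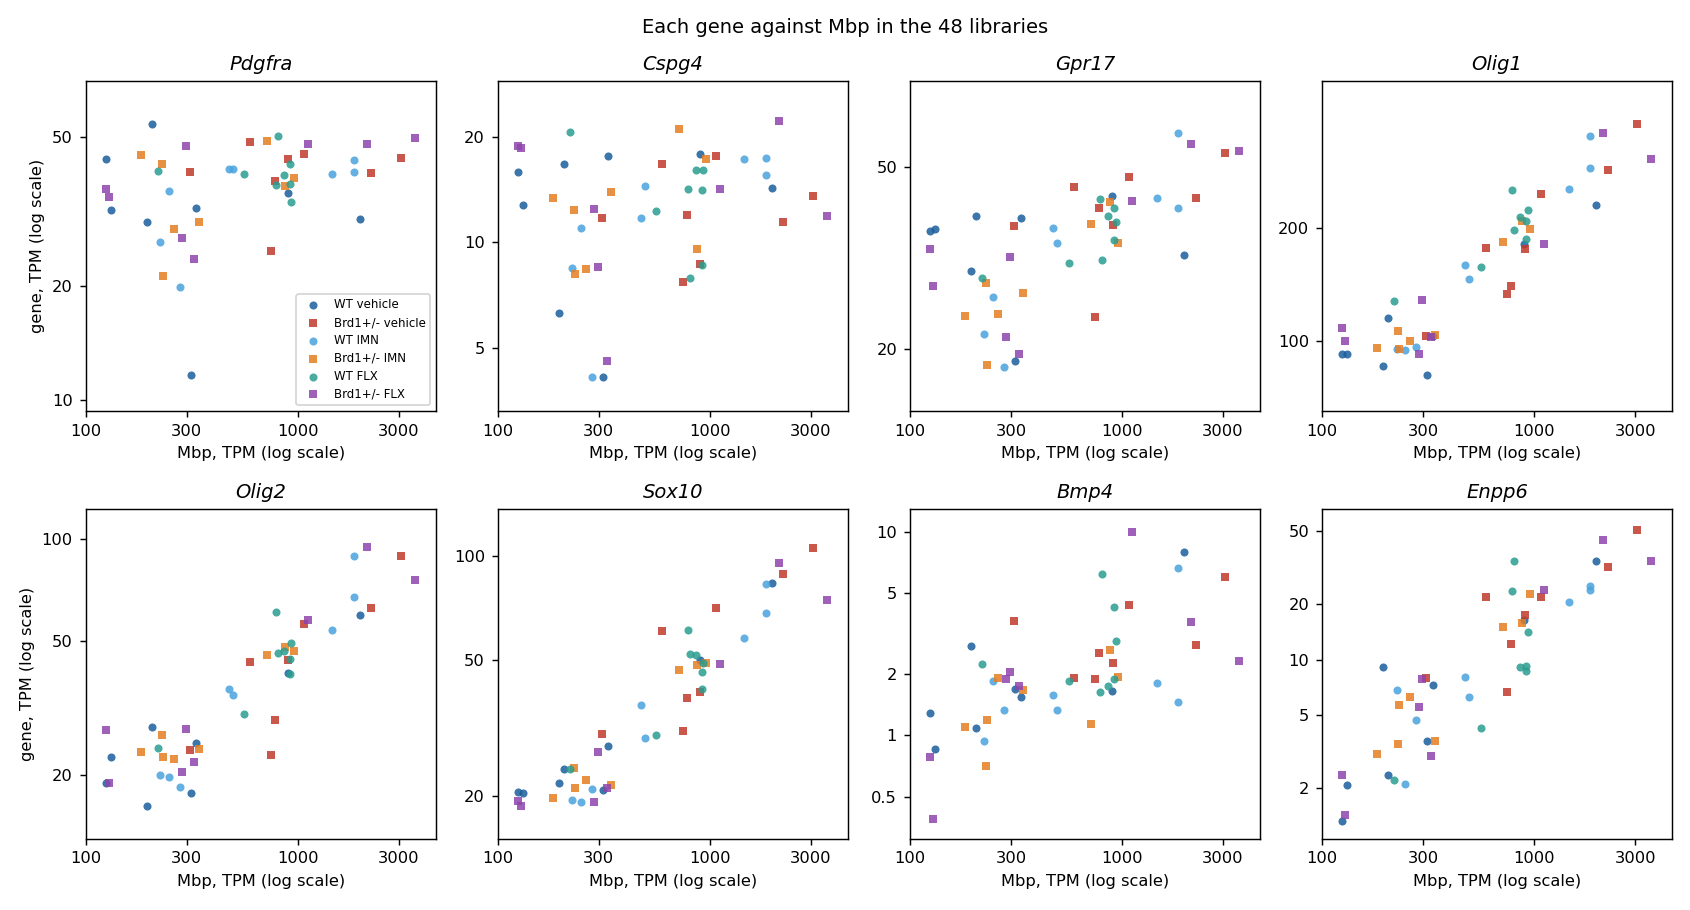
TPM of each gene (y axis, log scale) against *Mbp* (x axis, TPM, log scale) in 48 libraries, coloured by group. *Olig1*, *Olig2*, *Sox10* and *Enpp6* climb with *Mbp* in all groups. *Pdgfra* and *Cspg4* have no called slope on *Mbp*. The lowest *Pdgfra* library (WT vehicle 3) and the lowest *Cspg4* library (WT IMN 2) rank 18th and 14th from the lowest in *Mbp*.

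The same relations were seen as correlations across libraries (permutation tests, two-sided, 16 relations; 1e-05 is the smallest p that 100000 permutations can give). With *Mbp*, Pearson's r was 0.94 for *Sox10*, 0.93 for *Olig1*, 0.91 for *Olig2* and 0.90 for *Enpp6*, with Spearman's rho from 0.88 to 0.91, each with p = 1e-05. After subtraction of group means the 4 values were 0.93, 0.92, 0.90 and 0.89. Without the 2 libraries farthest from the median of *Mbp* they were 0.94, 0.92, 0.89 and 0.89. *Gpr17* and *Bmp4* were looser, with r = 0.65 for both (rho = 0.68 and 0.66; permutation p at most 2e-05). *Pdgfra* had r = 0.33 (p = 0.0208; rho = 0.31, p = 0.0322), which was 0.26 within groups (p = 0.0765) and 0.28 without the 2 farthest libraries (p = 0.0579). Its rho within groups was 0.29 (p = 0.045), so for *Pdgfra* the measures fell on either side of 0.05. *Cspg4* had r = 0.21 (p = 0.155; rho = 0.17, p = 0.246). With *Mog* r was 0.94 for *Sox10*, 0.93 for *Enpp6*, 0.92 for *Olig1* and 0.91 for *Olig2* (permutation p = 1e-05 each), 0.29 for *Pdgfra* (p = 0.0413; 0.21 within groups, p = 0.152, and 0.35 without the 2 libraries farthest in *Mog*, p = 0.0162) and 0.15 for *Cspg4* (p = 0.314). Adjusted p-values over all genes are those of the slopes. TPM values of a library share a fixed sum, so that genes of an abundant programme push others down in share.

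Beside *Mbp*, other cell type markers also moved within groups. The counts below are of called genes, where 25.1% of all genes were called on *Mbp* and 24.5% on *Mog*. Of the astrocyte markers 4 of 5 rose with *Mbp*, as did 3 of 5 of pericytes. So did 3 of 6 of fibroblasts and meninges and 2 of 5 of microglia, and 3 of 4 neuronal markers fell. The 5 astrocyte markers summed to 408.1 to 783 TPM in WT vehicle and 452 to 1452 TPM in *Brd1*+/- vehicle libraries. Of the striatal and choroid plexus markers 0 of 6 and 0 of 4 were called. Of the 7 amygdala markers 3 were called on *Mbp* and 4 on *Mog*. On *Mbp* these were *Prkcd* higher (0.44) and *Rspo2* (-0.68) and *Slc17a7* (-1.09) lower. Their part in the members' slopes was not tested, except that with the striatal markers as a covariate the slopes on *Mbp* were 0.97 for *Enpp6*, 0.44 for *Olig1* and 0.08 for *Pdgfra*, with 6 of 8 called (30.4% of all genes). Without the 13 libraries 6 of 8 were called as well (25.6% of all genes).

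Set against the myelin genes in each library, as log2 of the member minus the mean of *Mbp* and *Mog*, the members parted in the same way. The ratio of *Enpp6* to myelin varied with an SD of 0.53 over 48 libraries, that of *Sox10* with 0.57, *Olig2* with 0.66 and *Olig1* with 0.69. For *Bmp4* the SD was 0.94, for *Gpr17* 1.02, for *Pdgfra* 1.18 and for *Cspg4* 1.27. *Pdgfra* ranged from -4.61 to -0.02. In vehicle libraries the mean *Pdgfra* ratio was -2.04 ± 1.58 in WT and -3.22 ± 0.94 in *Brd1*+/- mice (SD, n = 8 each), and that of *Enpp6* was -4.50 ± 0.65 and -4.40 ± 0.44. For *Pdgfra* the groups overlapped, and for *Enpp6* they were nearly level. *Pdgfra* itself was not lower in *Brd1*+/- vehicle libraries, with a mean log2 level of 5.32 against 4.97 in WT. The myelin genes in the ratio were higher there, at 9.91 against 8.34 for *Mbp* and 7.18 against 5.68 for *Mog*. The lower *Pdgfra* ratio thus reflects the myelin genes and is not a lower *Pdgfra* level.

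The fit was repeated with the mean log2 level of the 6 striatal markers in place of *Mbp*, an addition made after the data had been seen. Here 3 of 8 members were called, all lower, where 39.1% of all genes were called and 8295 of the 10933 called genes were lower, so that the count of members is near the background. The 3 slopes lay at the 10.6th (*Cspg4*), 13.8th (*Pdgfra*) and 16.3rd (*Gpr17*) percentile of all genes. For each doubling of the marker score *Pdgfra* fell by 0.13 on the log2 scale (95% interval -0.17 to -0.10, adjusted p = 2.53e-07). *Cspg4* fell by 0.16 (-0.23 to -0.09, adjusted p = 0.000191) and *Gpr17* fell by 0.12 (-0.17 to -0.07, adjusted p = 4.65e-05). *Pdgfra* was at 11.7 TPM in WT vehicle 3, the library with the highest striatal sum of all, 6131 TPM, against 29.7 to 54.0 TPM in the other WT vehicle libraries. *Brd1*+/- vehicle 1 (5319 TPM of striatal markers) had 24.8 TPM against 38.0 to 48.3 TPM in its group. The slopes of the other 5 members lay between -0.09 (*Olig2*) and 0.01 (*Bmp4*) and were not called, though *Olig2* was without WT vehicle 1 (-0.12, adjusted p = 0.0313). With *Mbp* and *Mog* as a covariate, *Olig1*, *Olig2* and *Sox10* were called as well, at -0.07, -0.09 and -0.07, which made 6 of 8, beside 42.7% of all genes. The relation rests on the 13 libraries with high striatal markers. Without them 0 of 8 members and 0.564% of all genes were called, and the slopes were -0.02 for *Pdgfra*, -0.03 for *Cspg4* and -0.01 for *Gpr17*.

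**Figure D4:**
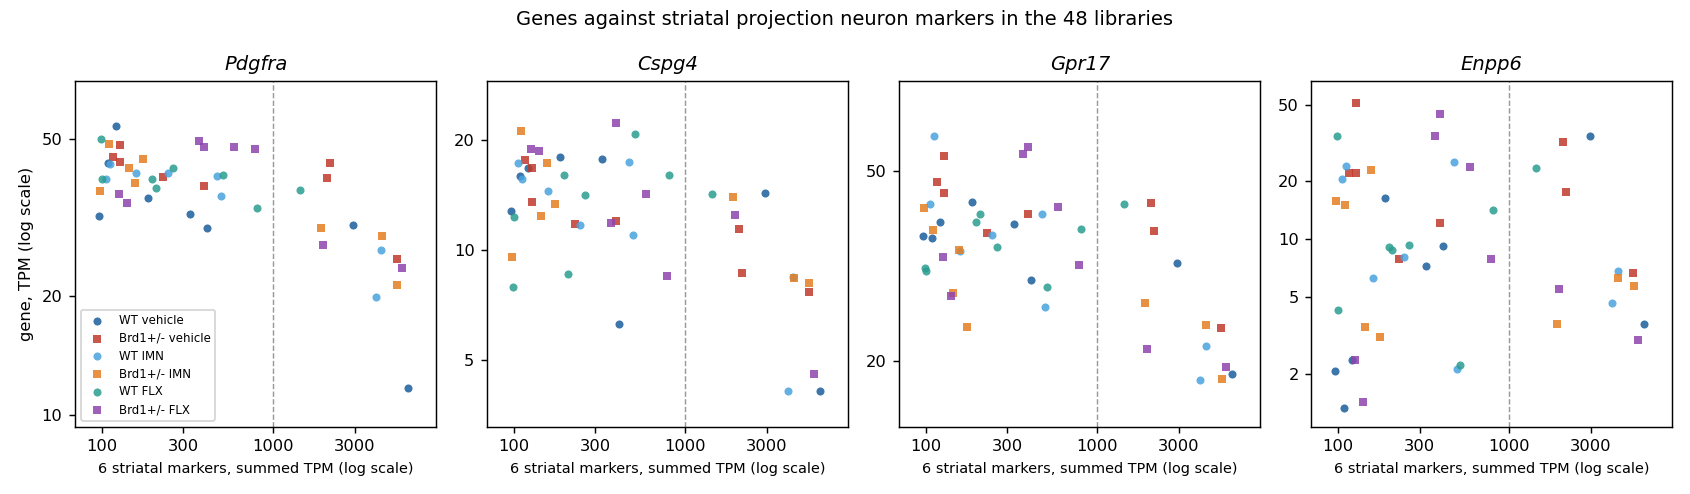
TPM of *Pdgfra*, *Cspg4*, *Gpr17* and *Enpp6* (y axis, log scale) against the summed TPM of 6 striatal markers (x axis, log scale) in 48 libraries. To the right of the dashed line at 1000 TPM lie 13 libraries, which include the lowest levels of *Pdgfra*, *Cspg4* and *Gpr17* but not those of *Enpp6*.

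**Figure D5:**
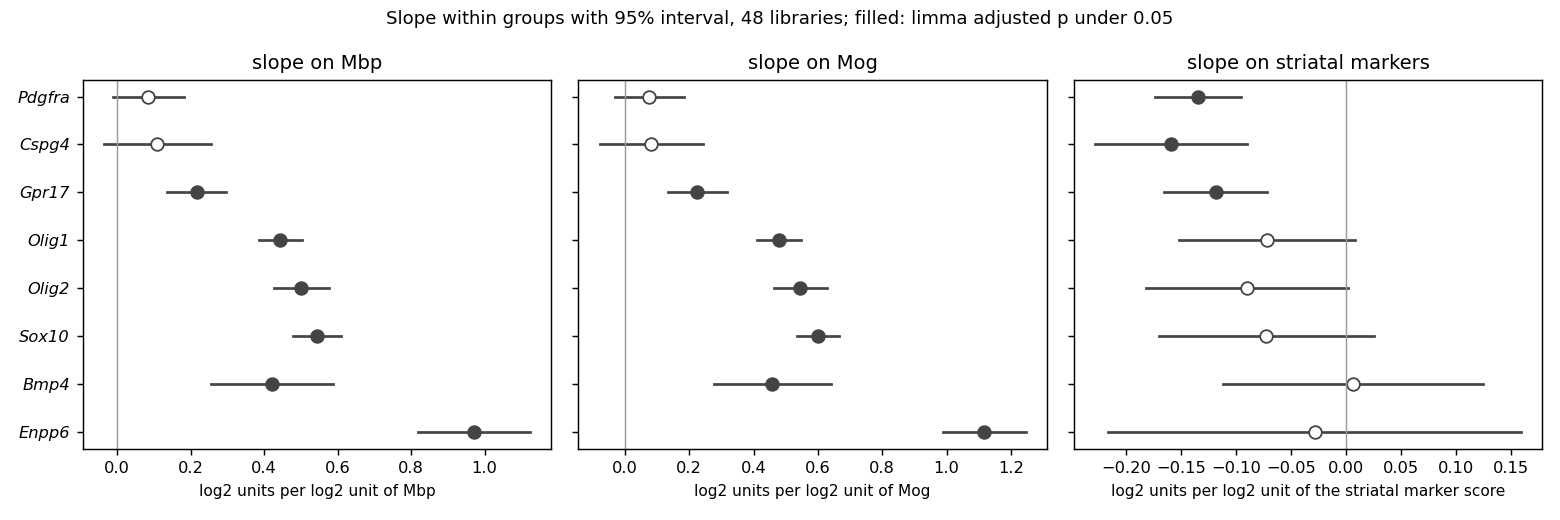
Slope of each gene within groups with its 95% interval, on *Mbp*, on *Mog* and on the striatal marker score, over 48 libraries. Filled points were called (adjusted p under 0.05), 6 on each myelin gene and 3 on the striatal markers.

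Among each other, the 28 pairs of members had correlations within groups from -0.05 to 0.98, with a median of 0.60. For each member the most similar genes, up to 3, were taken from 19206 genes with a mean of at least 1 TPM, by Pearson's r after subtraction of group means over 48 libraries, as a description. *Olig1*, *Olig2* and *Sox10* were mutually close, at 0.98, 0.98 and 0.97, and shared *Cmtm5* among their neighbours. *Enpp6* was closest to *Fa2h* (0.95), an enzyme that hydroxylates the fatty acids of myelin lipids, followed by *Serpinb1a* (0.94). *Mog* was the 5th gene in its order. *Pdgfra* was closest to *Ptprz1* (0.86), a receptor phosphatase of OPCs and astrocytes, then *Slco3a1* (0.86) and the neurotrophin receptor *Ntrk2* (0.86), and *Mbp* ranked 9343rd. *Gpr17* was closest to *Scarb2* (0.93), *Tshb* (0.91) and the astrocyte connexin *Gja1* (0.90). *Cspg4* was nearest to *Xab2* (0.83), *Cnot10* (0.81) and *Emc1* (0.80), and *Bmp4* to *Elovl7* (0.77), *Vgll4* (0.76) and *Kank2* (0.76).

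Further gene lists place the members in their pathway. Of 12 other genes of OPCs, 0 were called in *Brd1*+/- against WT vehicle mice, and 1, *Gpr37l1*, in WT FLX against WT vehicle mice (0.52 ± 0.10, adjusted p = 0.0322) and in the genotype by FLX interaction (-0.68 ± 0.17, adjusted p = 0.0334). *Gpr37l1*, an orphan receptor, is also made by astrocytes. Of the genes of committed precursors, of PDGF and BMP signalling and of myelin, 0 were called in any group comparison. The slopes on *Mbp* of these lists stand beside 25.1% of all genes called. Of the 12 other OPC genes 4 rose, among them the sialidase *Neu4* (slope 0.26) and versican (*Vcan*, 0.24). The xylosyltransferase *Xylt1* fell (-0.20). Of 12 genes of committed precursors and early differentiation, 8 rose with *Mbp* and 0 fell. The myelin regulator *Myrf* (0.81), *Bcas1* (0.64), *Tcf7l2* (0.57) and *Nkx2-2* (0.53) led them, while *Fyn* (0.03) and *Mycl* (-0.04) were not called. Of 15 partners in PDGF and BMP signalling 7 rose and 2 fell. The ligand *Pdgfa* (0.15), the receptor subunits *Bmpr1a* (0.10) and *Bmpr1b* (0.16) and the target genes *Id1* (0.21) and *Id3* (0.21) rose, and *Bmpr2* (-0.06) and the BMP antagonist *Chrd* (-0.54) fell. All 11 myelin genes tested rose with *Mbp*, with a median slope of 0.88, against 0.43 for the members and 0.01 for all genes.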

How the data were processed

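Per the labels, brains were frozen, sectioned and punched, and libraries were made from punch RNA with a TruSeq kit. Per the submitters' processing notes and the study's methods, the authors checked and trimmed reads with FastQC and Trimmomatic, aligned them to GRCm38 with HISAT2 2.1.0 and quantified genes with StringTie 1.3.4. The values the authors deposited are TPM for 48 libraries. Since TPM is scaled to 1 sum per library (999524 to 999772 here), depth is unknown, no counting interval was computed, and a gain in some transcripts lowers the share of others. Use of strand is not given in the sources used here. The design text names other regions than the sample labels, and the labels (amygdala) were followed.

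Groups came from the labels. Each library was labelled as a separate sample, and p-values measure the spread between these samples. Symbols came from GENCODE M21 (52403 IDs named), coordinates are 1-based. log2(TPM + 0.1) was modelled with limma 3.58.1 under R 4.3.3 with a trended prior, for genes with at least 0.1 TPM in at least 8 libraries, two-sided, adjusted over all genes tested. All 8 members passed this filter in every fit. Differences are on the log2(TPM + 0.1) scale and understate changes of low genes. Pairs used their 16 libraries, slopes all 48 with a term for group. Correlations were tested by permutation (scipy 1.17.1). A member's log2 difference was printed with its error where its unadjusted p was under 0.05, others by range. The code was tested on simulated data. Members and lists were chosen with earlier results of these data known. Alternatives were other pseudocounts, filters and scalings, a prior without trend, a joint fit of the groups and a replicate block. Further ones were a term for sample codes, *Mbp* and *Mog* as a covariate and leaving out each library. The term split the codes within vehicle and within drug libraries, so it cannot separate drug from range of codes. The slope on striatal markers, these markers as a covariate and leaving out the 13 libraries above 1000 TPM were added after seeing the data. A similar gene of *Enpp6* is not reported here.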

Additional observations from a re-analysis of the deposited data

Results flagged for a closer look

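A single library far from the 7 others of its group was found in 6 of 60 sets of gene and group (Dixon's test at the 95% level), where chance alone flags about 1 set in 20. *Pdgfra* was at 11.7 TPM in WT vehicle 3, below the others at 29.7 to 54.0 TPM, and at 24.8 TPM in *Brd1*+/- vehicle 1, below the others at 38.0 to 48.3 TPM. The same libraries were lowest for *Gpr17*, with 18.8 TPM in WT vehicle 3 (others 29.6 to 43.1 TPM) and 23.5 TPM in *Brd1*+/- vehicle 1 (others 37.1 to 53.6 TPM). Both had the highest striatal marker sum of their group, 6131 and 5319 TPM. *Bmp4* reached 6.65 TPM in WT IMN 3, where the others had 0.94 to 1.84 TPM. *Mbp* was at 219 TPM in WT FLX 8, where the others had 561 to 934 TPM.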

How the results depend on the processing

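The count of members called was 0 in all group comparisons, interactions and the test over 6 groups, and 6 on each myelin gene, under every alternative except the following. In WT FLX against WT vehicle it ran from 0 to 2 when 1 library was left out (2 without WT vehicle 1, 1 without WT vehicle 7). It was 1 without the 13 libraries of high striatal markers, which include WT vehicle 1. On the striatal markers 3 members were called, 6 with *Mbp* and *Mog* as a covariate, 4 without WT vehicle 1 (*Olig2* added, -0.12) and 0 without those 13 libraries. Same-numbered libraries of the compared groups correlated from -0.32 to 0.36, with at most 4 of 8 pairs over 0.1. The highest median of same-numbered pairs was 0.12, in *Brd1*+/- IMN against *Brd1*+/- vehicle, beside -0.03 for other pairs. Weak correlation cannot exclude a pairing, and the main fits used none. The paper describes WT and *Brd1*+/- mice as litter-matched, and litter was not modelled. The replicate block left 0 members called between groups, 6 on each myelin gene and 3 on the striatal markers.

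Some values changed sign, and the cause was not tested. With *Mbp* and *Mog* as a covariate, in *Brd1*+/- against WT vehicle, *Olig2* was at -0.0650 and *Sox10* at -0.0288, and in the IMN interaction *Olig1* was at 2.89e-05, *Sox10* at 0.12 and *Enpp6* at 0.22. With the striatal markers added to this covariate, the vehicle differences were -0.0433 (*Olig1*), -0.16 (*Olig2*), -0.11 (*Sox10*) and -0.00175 (*Enpp6*), the IMN interactions 0.0611 (*Sox10*) and 0.20 (*Enpp6*), and the FLX interaction 0.0198 (*Sox10*). The uncalled striatal slope of *Bmp4* was -0.00895 with a pseudocount of 1, -0.0191 with the replicate block and -0.0285 to 0.0280 when 1 library was left out. That of *Enpp6* was 0.00321 with median-ratio scaling, 0.0141 with quantile normalization and 0.0436 with the block. Without the 13 libraries it was 0.00554 for *Olig1*, 0.0426 for *Sox10* and 0.23 for *Enpp6*. Depth is unknown, so small differences in *Bmp4*, the lowest member, have no counting error attached.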
